A study of Drosophila melanogaster with 4 samples.

Results

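Of the 14009 regions enriched for H3K4me1 on the large chromosome arms 2L, 2R, 3L, 3R and X of Drosophila melanogaster larvae, 245 (1.75%) stood alone. They were chosen by their own positions and widths in the deposited peak list. Each was under 5000 bp wide and at least 10 kb from the previous and from the next peak of its arm, and the first and last peak of each arm were left out. The whole list held 14326 peaks, and the other peaks under 5000 bp on the large arms, used here for comparison, numbered 13012.

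The list came from wandering third-instar larvae, of unknown sex, of the strain Y cn bw sp. All samples shared this genotype: the X chromosome carried y[1] with oc[R3.2]; the second chromosome carried Gr22b[1] and Gr22d[1], cn[1], bw[1] and sp[1], and also CG33964[R4.2]; the third chromosome carried LysC[1] and MstProx[1], lab[R4.2], and GstD5[1] with Rh6[1]. There were 2 ChIP libraries, made with an affinity-purified rabbit polyclonal antibody, and 2 libraries of input DNA, the same kind of chromatin before precipitation. The deposited list holds no value per library, so no value below has an error between replicates, the depth is unknown, and the labelled stage and tissue could not be checked against markers. Because the peaks were selected by position and width within this list, their widths, scores and places are given as a description, with no test. Intervals are 95% intervals, exact for a share (Clopper-Pearson) and from order statistics for a median. They treat peaks as independent and cover counting error only.

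H3K4me1 is histone H3 with a single methyl group on lysine 4. In flies much of it is placed by Trithorax-related, a methyltransferase of the COMPASS family, and it is known as a mark of enhancers, both active and poised, and of the sequence beside active promoters. Developmental genes often have several enhancers spread over their introns and flanks. The cause of the spacing between peaks of this list was not tested. Whole larvae mix many tissues, so a peak marked weakly in many cells cannot be told apart from a peak marked strongly in few cells.

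Remote isolated peaks were narrow. Their median width was 476 bp (95% interval 434 to 569), with quartiles of 308 and 1080 bp, and the median of the other peaks under 5000 bp was 780 bp (762 to 799), with quartiles of 382 and 1602 bp. Peaks under 500 bp made up 128 of the 245 (52.2%, 45.8 to 58.6), against 34.5% (33.7 to 35.4) of the others. This share was 27.9% when peaks were joined across gaps of 1000 bp or less before selection. It was 4.06% when the upper 50% of scores alone was kept before selection. The others were wider too in these settings, and their share under 500 bp is not given. The drop from 52.2% is therefore not a result about isolated peaks alone. In these settings the isolated peaks had median widths of 1269 and 1376 bp, against 1443.5 and 1656 bp in the others. The isolated peaks thus stayed the narrower ones, with differences of -174.5 and -280 bp, against -304 bp in the full list. At the other end, 17 of the 245 were 2000 bp or wider (6.94%, 4.09 to 10.9), against 18.2% of the others. Together the 245 regions covered 199.6 kb, or 0.924% of all sequence under peaks on these arms.

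Their scores were low as well. The score is the authors' peak caller's own value for each peak, with no stated unit, and it serves here only to rank peaks within the list. Its median was 21.8 in remote isolated peaks (95% interval 19.7 to 23.6), with quartiles at 14.5 and 37.6 and extremes of 6.92 and 189, and it was 30.7 in the other peaks under 5000 bp (30.0 to 31.5), with quartiles of 16.5 and 69.2. Only 23 of the 245 (9.39%, 6.04 to 13.8) scored above 79.3, the upper quartile of the large arms, against 21.1% of the others. A single one scored above 150, against 935 of the 13012 others (7.19%).

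**Figure D1:**
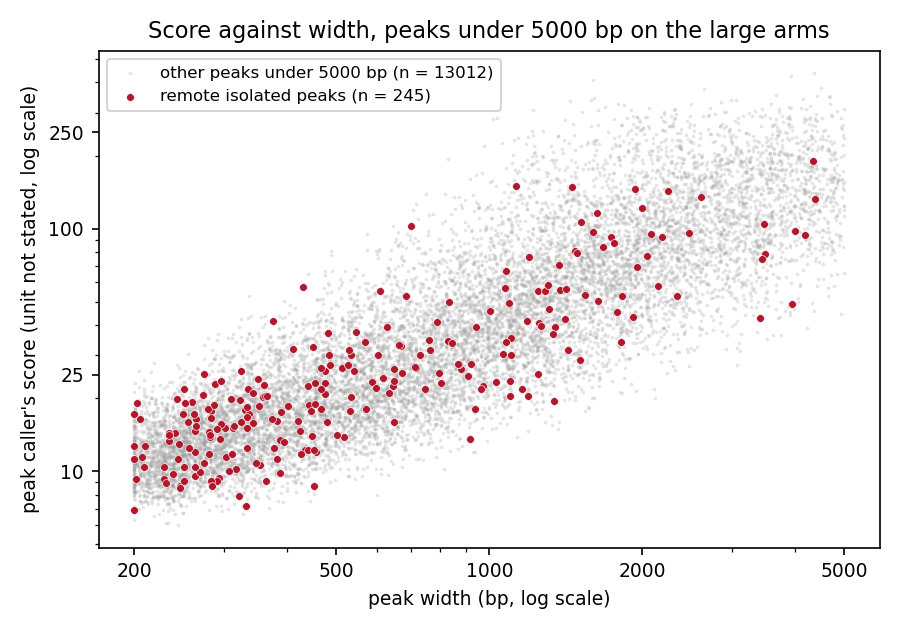
Score of each peak against its width in bp, both on log scales, for the 245 remote isolated peaks (red) and the 13012 other peaks under 5000 bp on the large arms (grey). The red points lie inside the grey cloud, crowded at the narrow end, and above 150 there is a single red point.

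At a given width, remote isolated peaks of the full list did not score consistently lower. The peaks were divided into 8 classes of width, and the median score of the isolated peaks was the lower one in 4 classes and the higher one in the other 4. This split rests partly on very small differences. Isolated minus other, the medians differed by 0.08 from 300 to under 400 bp and by -0.165 from 400 to under 500 bp. With the upper 50% of scores alone, isolated peaks were selected anew, and 419 qualified. Only 72 of the 245 scored above the median of the large arms, so most of the 419 were not among the 245. These 419 had the lower median in 87.5% of the classes, against 50% in the full list. With arm 3L left out the share of classes was 75%, and with a minimum gap of 5000 bp it was 62.5%. No alternative setting gave less than 50%. In the full list, the median score from 200 to under 300 bp was 13.6 in 59 isolated peaks (95% interval 11.5 to 14.9) and 12.2 in the others. From 500 to under 700 bp it was 25.9 in 27 isolated peaks (22.1 to 31.5) and 23.1 in the others.

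Among wider peaks the medians leaned the other way in 3 of the 4 classes above 700 bp. From 1000 to under 1500 bp the median was 42.0 in 34 isolated peaks (34.0 to 55.8) and 49.8 in the others. From 2000 to under 5000 bp it was 94.4 in 17 isolated peaks (75.0 to 104) and 113 in the others, although these isolated peaks were wider than the others of the class, with a median of 3416 against 2866 bp. This was the one class in which the median of the other peaks fell outside the interval of the isolated peaks. Score and width were ranked alike in both sets, with a Spearman's rho of 0.83 over the 245 isolated peaks and 0.88 over the others, where both quantities come from the same peak caller.

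The highest-scoring isolated peaks were local exceptions to this low level. Positions are in FlyBase release 5 coordinates, counted from 1. The first, at X, 13782222 to 13786559, had a score of 189, was 4338 bp wide and lay 42.5 and 38.5 kb from its neighbours. It ranked 893 by score among all peaks of the large arms. The next, at X, 2842039 to 2843169, scored 149 at a width of 1131 bp and had an empty 158 kb on one side and 12.4 kb on the other.

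It was followed by 3R, 25958474 to 25959931, with a score of 149, a width of 1458 bp and gaps of 23.9 and 37.3 kb. The best on 2R, at 7340737 to 7342672, scored 146 over 1936 bp, and the best on 3L, at 9088247 to 9090498, scored 143 over 2252 bp. The best on 2L was weaker, with a score of 96.3 over 1604 bp at 11446090 to 11447693, but stood farther from other peaks, with gaps of 86.7 and 78.6 kb. The first 10 by score were completed by 2R, 11399377 to 11401984 (score 135), and 3L, 1177577 to 1179204 (score 116), and on 3R by 5991809 to 5996179 (score 133), 20610993 to 20612991 (score 122) and 538172 to 539687 (score 107). No peak of 2L was among them.

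The 5 lowest scores lay between 6.92 and 8.68. The lowest belonged to a peak of 200 bp, the smallest width in the list, at 3R, 16833189 to 16833388. It was followed on 3R by 4963246 to 4963577 (score 7.17) and 17989771 to 17990091 (score 7.92), and then by X, 18187547 to 18187792 (score 8.50), and 2L, 21494298 to 21494543 (score 8.68). Their widths were between 200 and 332 bp.

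The 5 widest isolated peaks measured between 3945 and 4371 bp. Besides the peaks of 4371 bp on 3R and 4338 bp on X given above, they lay at X, 1585663 to 1589850 (score 94.4), at 3L, 4067606 to 4071595 (score 97.7), and at 2L, 9386602 to 9390546 (score 49.0). The last had about the score of isolated peaks of 1000 to 1500 bp. Just outside the width limit, isolated peaks of 5105 bp at X, 16857048 to 16862152, 5197 bp at 2L, 6610987 to 6616183, and 5280 bp at 3R, 22081991 to 22087270, scored 181, 191 and 237. In all, 10 peaks of 5000 bp or wider had both gaps of 10 kb or more, which was 1.33% of the 752 wide peaks, while 1.85% of the peaks under 5000 bp did so.

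Just inside the gap limit, the peaks at 2R, 20400927 to 20402296, 3L, 2387339 to 2387805, and 2L, 21483987 to 21484269, had smaller gaps of 10013, 10018 and 10028 bp and scores of 70.8, 26.6 and 16.6. Just outside it, peaks at 2R, 1560376 to 1560770, 3L, 8418471 to 8421187, and 3L, 6908897 to 6909124, had smaller gaps of 9991, 9938 and 9912 bp and scores of 19.0, 96.8 and 11.5. So few peaks on each side do not allow a comparison of scores across the limit.

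Among peaks under 5000 bp whose nearer neighbour was at least 500 bp away, the medians of width and score fell in steps with that distance up to 10 kb. The median width was 889 bp (95% interval 846 to 933) where the nearer neighbour was 500 to 1000 bp away, 761 bp (694 to 826) at 1 to 2 kb, 695 bp (602 to 781) at 2 to 5 kb and 591 bp (508 to 670) at 5 to 10 kb. In isolated peaks it was 481 bp (424 to 645) at 10 to 20 kb, 446 bp (358 to 635) at 20 to 50 kb and 461 bp (366 to 880) at 50 kb or more. The median scores over the same steps were 35.9, 29.8, 28.3, 23.4, 21.8, 21.3 and 22.4. Closer neighbours did not follow this order. The 5677 peaks with a neighbour within 250 bp had medians of 720 bp and 28.8, and the 2963 with the nearer neighbour at 250 to 500 bp had 862 bp and 34.3.

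**Figure D2:**
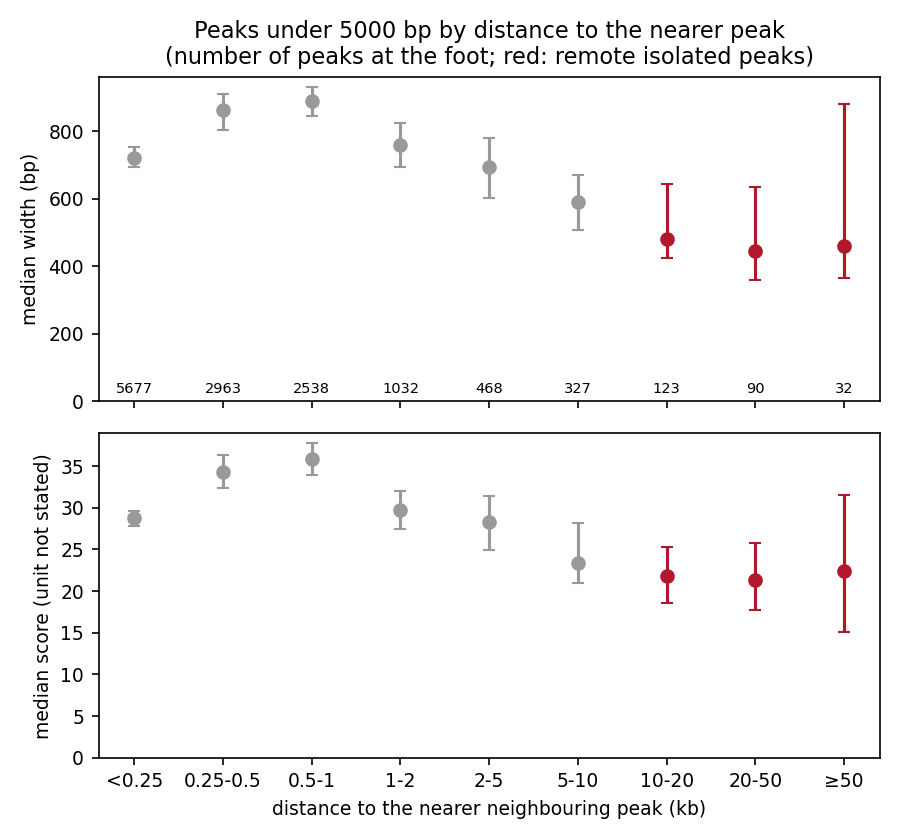
Median width in bp (top) and median score (bottom) of peaks under 5000 bp, by distance in kb to the nearer neighbouring peak; bars are 95% intervals of the median and the numbers of peaks stand at the foot. Medians fall from the class of 0.5 to 1 kb to that of 10 to 20 kb, and the 3 red classes of isolated peaks overlap in their intervals.

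Beyond 10 kb, farther did not mean weaker. Within the 245 isolated peaks, Spearman's rho between the smaller gap and the score was -0.0083, and between the smaller gap and the width -0.029. The 32 peaks with both gaps of 50 kb or more had a median score of 22.4 (95% interval 15.1 to 31.5), and the other 213 had 21.8 (19.1 to 24.2). The highest score among those 32 was 96.3.

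A wide empty stretch on one side alone went with a smaller shift. The 2856 peaks under 5000 bp with exactly 1 gap of 10 kb or more had a median width of 666 bp (629 to 694) and a median score of 27.4 (26.1 to 28.5). With both gaps under 10 kb, 10149 peaks had 816 bp (792 to 840) and 31.9 (31.1 to 32.9). Even beside a gap of 50 kb or more, 706 peaks that had another peak within 10 kb on the far side had a median width of 717 bp (650 to 783) and a median score of 29.4 (26.5 to 31.5), above those of peaks with an empty 10 kb on both sides.

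The number of companions was compared as well. Chained across gaps under 10 kb, the peaks of the large arms formed 1742 blocks, and 245 of these (14.1%) were remote isolated peaks. Peaks under 5000 bp in blocks of 2 had a median width of 617 bp (550 to 722) and a median score of 27.1 (23.6 to 29.8). In blocks of 3 to 4 the medians were 727 bp and 28.8, in blocks of 5 to 9 they were 763 bp and 31.1, and in blocks of 10 to 19 they were 818 bp and 32.3. Larger blocks went no higher. In the 4 blocks of 50 to 61 peaks the medians were 632 bp (528 to 797) and 23.8 (19.5 to 32.5), intervals that overlapped those of isolated peaks.

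The peaks on either side of an isolated peak had medians close to those of peaks with 1 gap of 10 kb or more. This likeness is partly built in. By the selection, each flanking peak borders a gap of 10 kb or more. Most of those under 5000 bp that were not isolated therefore belong to the compared set. The 398 flanking peaks that were not themselves isolated, of any width, had a median width of 637 bp and a median score of 27.8. The peaks under 5000 bp with 1 gap of 10 kb or more had 666 bp and 27.4. All peaks of the large arms that were not isolated had medians of 848 bp and 33.6. Of the flanking peaks, 17 (4.27%) were 5000 bp or wider, against 5.46% of all that were not isolated.

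Isolation was often far more than the 10 kb required. The smaller gap had a median of 19.8 kb and quartiles of 13.1 and 33.8 kb, and the larger gap a median of 44.0 kb and quartiles of 25.1 and 91.5 kb. Both gaps were 20 kb or more for 122 peaks, 50 kb or more for 32 and 100 kb or more for 3. The stretch that held nothing but the isolated peak had a median length of 72.2 kb and reached 528 kb.

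The most remote peak of all lay at 2L, 17747547 to 17748976, with 161 and 365 kb to its neighbours, a width of 1430 bp and a score of 31.5. Its neighbour on the near side, at 2L, 17586047 to 17586580, was itself among the 10 most remote, with a score of 30.1 and gaps of 85.5 and 161 kb. With a further isolated peak at 17499726 to 17500522 (score 25.3), these 3 were the only peaks in 630 kb.

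Next in remoteness were 3L, 17233668 to 17234698, with gaps of 185 and 148 kb and a score of 23.2, and 2R, 19128471 to 19128804, with gaps of 166 and 114 kb and a score of 12.4. On X there were 3 of the most remote, at 22035101 to 22035567 (gaps of 93.3 and 375 kb, score 21.8), 3465945 to 3467229 (84.2 and 97.1 kb, score 55.4) and 17291745 to 17292170 (82.2 and 89.1 kb, score 11.7). The others lay at 3R, 9351352 to 9351803 (91.2 and 116 kb, score 12.2), 3L, 6351372 to 6351760 (93.8 and 83.0 kb, score 17.5), and 2L, 11526246 to 11526598 (78.6 and 210 kb, score 10.6). The last shared its smaller gap, and so its rank of 10, with the neighbour across that gap, the best-scoring isolated peak of 2L (score 96.3). Scores in these 11 ran from 10.6 to 96.3, and that neighbour was the only one of them above the upper quartile of the large arms.

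Isolated peaks bordered both shorter and longer empty stretches. By the way they were chosen, each bordered 2 gaps of 10 kb or more, and 444 of the 1737 such gaps (25.6%) had an isolated peak at one end or both. The share was 24.1% of the 1295 gaps from 10 to under 50 kb, 31.5% of the 254 from 50 to under 100 kb and 27.7% of the 188 of 100 kb or more. These shares were not tested against each other. With the isolated peaks taken out of the list, the gaps of 100 kb or more rose in number from 188 to 216 and in total length from 32.6 to 39.6 Mb.

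The arms did not hold them in equal shares. On 2L, 65 of 2460 peaks were isolated (2.64%, 95% interval 2.05 to 3.36), on 3L 57 of 2875 (1.98%, 1.50 to 2.56), on 3R 56 of 3312 (1.69%, 1.28 to 2.19), on 2R 39 of 2818 (1.38%, 0.986 to 1.89) and on X 28 of 2544 (1.10%, 0.733 to 1.59). The interval of 2L did not overlap those of 2R and X, whereas neighbours in this order overlapped. The arms were not tested against each other. Since 84 of the 245 lay in rows in which neighbours share a gap, the intervals may be too narrow. A single bin of 1 Mb, described below, held 11 of the 65 on 2L. Without that bin the share on 2L was 2.29%. No interval was computed for this value, so the separation of 2L from 2R may depend on that bin. Per length of arm the order was the same at its ends, with 2.83 isolated peaks per Mb on 2L and 1.25 on X. The 4 autosomal arms together had 217 of 11465 (1.89%, 1.65 to 2.16). Of the blocks defined above, isolated peaks made up 19.5% on 2L and 9.69% on X.

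Median width and score were lower than in the other peaks on each arm. The median width of isolated peaks was 439 bp on 2L, 454 bp on 2R, 530 bp on 3L, 465 bp on 3R and 493 bp on X, and that of the other peaks under 5000 bp lay between 752 and 856 bp. The median scores were 20.2, 21.8, 25.2, 21.2 and 19.9 in the same order, with the other peaks between 29.8 and 31.8. On X, with 28 isolated peaks, the medians of the other peaks (856 bp and 31.5) were inside the intervals of the isolated ones (421 to 1131 bp and 14.1 to 39.7), and so was the median width on 3R (334 to 1003 bp).

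**Figure D3:**
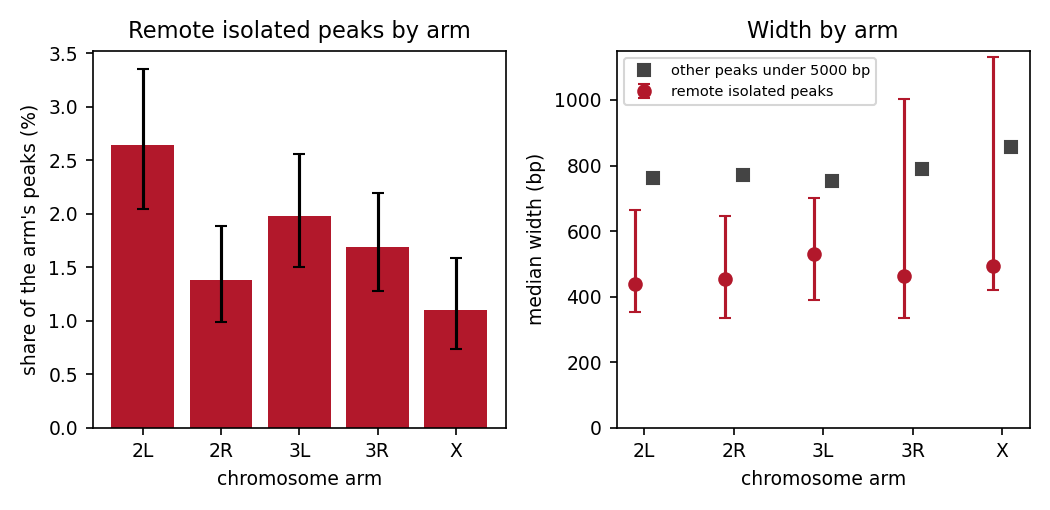
Left, the share of each arm's peaks that were remote and isolated, in percent; right, the median width in bp of these peaks (red) and of the other peaks under 5000 bp (dark squares) on each arm; bars are 95% intervals. The share runs from 1.10% on X to 2.64% on 2L, and the red medians lie below the dark ones on each of the 5 arms.

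Toward the centromere isolated peaks took a larger share. Distance was counted from the outermost peak on the centromere side of an arm (the high end of 2L, 3L and X, the start of 2R and 3R). Within 2 Mb, 35 of 791 peaks were isolated (4.42%), against 210 of 13218 farther out (1.59%). Since isolation is defined by spacing, this share also depends on how closely peaks lie in a stretch, which was not adjusted for. In steps, the share was 4.89% (95% interval 2.76 to 7.93) in the first Mb, 4.13% (2.54 to 6.31) in the second, 1.02% (0.624 to 1.57) from 2 to 5 Mb, and between 1.55% and 1.80% in each step beyond.

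Single arms differed in this. The share within 2 Mb was 11.3% on 2L (14 of 124 peaks), 8.11% on 2R (6 of 74) and 4.46% on 3L (10 of 224), against 2.18%, 1.20% and 1.77% farther out on the same arms. On 3R it was 1.38% (4 of 290), against 1.72% farther out, and on X it was 1.27% (1 of 79), against 1.10%. The isolated peaks within 2 Mb had a median width of 360 bp (296 to 872) and a median score of 23.6 (20.3 to 31.5), and those farther out had 478 bp (439 to 569) and 20.9 (18.6 to 23.6). How multiply aligned reads were treated is not given in the sources used here, so that an empty neighbourhood without the mark cannot be told apart from one where reads could not be placed.

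**Figure D4:**
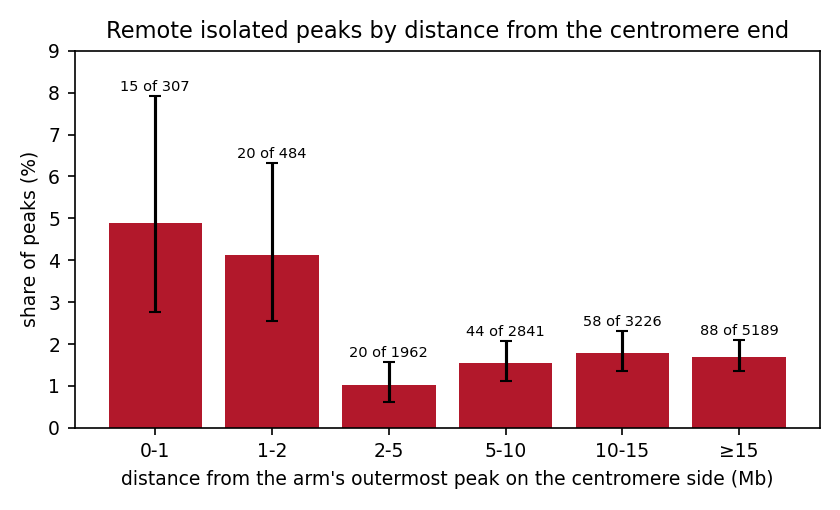
Share of peaks in percent that were remote and isolated, by distance in Mb from the outermost peak on the centromere side of the arm, over all 5 arms; bars are 95% intervals and the counts stand above them. The first 2 steps, with 15 of 307 and 20 of 484 peaks, lie above the other 4.

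A single megabase carried part of both patterns. The stretch 2L, 20960331 to 21960330, held 11 isolated peaks among 105, more than any other bin of 1 Mb. They scored between 8.68 and 77.4, and 8 of them were narrower than 500 bp. Without this bin, chosen after its count was seen, 54 of 2355 peaks on 2L (2.29%) and 24 of 686 peaks within 2 Mb of a centromere end (3.50%) were isolated. The longest row of isolated peaks in succession, 4 peaks of 246 to 360 bp from 21483987 to 21575213 with scores of 8.68 to 22.7, lay in the same bin.

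Most bins held few isolated peaks. Of the 119 bins of 1 Mb that held any peak, the one on 2L included, 17 had no isolated peak, 92 had 1 to 4, and 10 had 5 or more and held 59 of the 245. The numbers of isolated and of other peaks per bin were unrelated in rank (Spearman's rho -0.0082 over 119 bins). A row of at least 2 isolated peaks in succession held 84 of the 245 (34.3%), in 31 rows of 2 and 7 rows of 3 or more, and the other 161 had none of the 245 next to them. The row of 3 at 2L, 11358986 to 11526598, joined the best-scoring isolated peak of 2L (96.3) and one of the most remote (score 10.6) across a gap of 78.6 kb.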

How the data were processed

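H3K4me1 ChIP-seq of 2 ChIP and 2 input samples had been reduced by the authors to 1 deposited peak list. Per the file headers, it comes from MACS in FlyBase release 5 coordinates; tools named in the submitters' processing notes are BWA, MACS2 and CASAVA (1.7.0.2, 1.7.0.3), with the build BDGP5. Not given in the sources used here are the peak settings, the threshold and how the samples were combined. The deposited score per peak has no stated scale. Deposited starts were read as counted from 0 (2 peaks start at 0); widths are end minus start, and gaps the next start minus the previous end.

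Medians, quartiles, shares and intervals were computed with Python 3.11.15, pandas 2.3.3, numpy 2.4.6 and scipy 1.17.1. The selection was tested on simulated data. The members and comparisons were chosen with earlier results of these data known, and no test was made. Peaks are named by a written rule: the 10 highest and 5 lowest scores, the 10 most remote with a tie for the last, the 5 widest, the best of each arm, and 3 on each side of each limit; the bin, rows of isolated peaks and chromosome 4 were singled out after their values were seen. Alternatives were other gap and width limits, joined peaks, the upper 50% of scores, other comparison peaks and leaving out an arm. Genes and sequence in release 5 coordinates were not used here.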

Additional observations from a re-analysis of the deposited data

Results flagged for a closer look

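Chromosome 4, which the selection left out, held peaks that met the same limits. There were 9 among its 145 peaks (6.21%, 95% interval 2.88 to 11.5), against 1.75% on the large arms, and they drew attention because this chromosome takes no part in the comparisons above. Their median width was 369 bp, with a range from 222 to 2430 bp, and their median score was 21.5, with a range from 10.6 to 81.4. The other peaks of chromosome 4 under 5000 bp had medians of 496 bp and 25.5. Gaps of 10 kb or more made up 33 of its 144 gaps (22.9%), against 12.4% on the large arms. The difference was not tested.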

How the results depend on the processing

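No paired analysis was possible because the deposited list holds no separate values for the samples, which also means that none could be left out. Of 112 alternative values, 89 stayed within the interval of the value reported (or within 1.5 times for a count), and no difference changed sign. A minimum gap of 5000 bp gave 572 isolated peaks and 20000 bp gave 122, against 245. With 5000 bp, 2L held a share of them 2.89 percentage points above its share of all peaks, against 8.97. Without a limit on width the medians lay 361 bp and 11.1 score units below those of the other peaks (differences of -361 and -11.11), against -304 and -8.95, and against all other peaks they were -372 and -11.8. Joining peaks across 1000 bp or less gave 458 isolated regions, with differences of -174.5 bp and -5.81. Each joined region took the highest score of its parts, so this score difference is not like for like with that of the full list. The excess of joined regions within 2 Mb of the centromere end was 3.92 percentage points, against 8.79. The upper 50% of scores gave 419, with a score difference of -16.5. The medians behind it were 56.65 and 73.19, against 21.78 and 30.73 in the full list, so the 2 differences stand at different score levels. In this setting the excess on 2L was 1.18 and the excess near the centromere 2.97 percentage points. The median score was lower than that of the others in 87.5% of width classes, against 50%. The cause was not tested beyond these settings. Leaving out each arm in turn, or the richest bin (added after seeing the data), kept the values that could be recomputed within their intervals, and the number of isolated peaks within 1.5 times. The limits set by depth cannot be given, since read numbers are unknown.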

Other observations

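Wide peaks that stood alone had a higher median score than the narrow ones described above. Score also rose with width among peaks under 5000 bp, isolated or not. The scores of wide peaks that were not isolated were not compared, so the contrast cannot be called particular to isolated peaks. The 10 peaks of 5000 bp or wider with both gaps of 10 kb or more had a median score of 194.7 and a range from 69.3 to 267, and all but 1 of them scored above 150, which a single narrow isolated peak did. They were singled out after their values were seen. The highest score was at 2R, 10459662 to 10466153 (6492 bp, with gaps of 37.8 and 21.5 kb). The widest, at 3R, 16079141 to 16092251, spanned 13.1 kb with a score of 219, and had an empty 195 kb on one side and 15.1 kb on the other. The lowest, at X, 8087450 to 8094199, scored 69.3 over 6750 bp.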
